A study of Mus musculus with 8 samples.

Results

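Macrophages of mammary glands from non-transgenic mice were compared after 4 weeks and after 48 hours of dimerizer, the drug that clusters and switches on an inducible FGFR1 in mice that carry it. The comparison holds 4 of the 8 arrays of the study: 2 pools at 48 hours and 2 pools at 4 weeks, each made of cells from 3 mice. The mice were FVB females without the MMTV-iFGFR1 transgene, littermates of the transgenic mice, and were 6 weeks old when injections began. All of them received dimerizer, so the 4 weeks mice were both older and dosed for longer, and age and duration of treatment cannot be told apart. The other 4 arrays held the matching transgenic pools, in which the MMTV promoter, active mainly in mammary epithelium, drives the inducible receptor. Cells were released with collagenase and sorted with a Cd11b-PE antibody, and their RNA was amplified in a two-step T7 protocol before hybridisation to Affymetrix arrays.

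Mammary macrophages live along the ducts and in the fat pad, clear dying epithelial cells and shape duct growth through puberty. They sense interferons, microbial products and cell debris, and answer with antiviral proteins, antigen presentation or inflammatory cytokines. Cd11b, the antigen of the sort, is also carried by monocytes, neutrophils, eosinophils and NK cells, so those cells can pass the gate. In bulk RNA of this kind, fewer cells of a type and less RNA per cell cannot be told apart.

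Macrophage genes other than Itgam were bright on the control arrays. Csf1r, the receptor for the growth factor CSF1, gave MAS5 signals of 93065 and 80298 at 48 hours and 77590 and 86294 at 4 weeks, with a log2 difference of -0.08 (SE 0.15). Adgre1, which encodes F4/80, gave 14556 and 12910 at 48 hours and 9842 and 11955 at 4 weeks. Itgam, the Cd11b gene itself, was dim and uneven, with 264 and 184 at 48 hours and 545 and 46.8 at 4 weeks. Cd68, a further macrophage gene, gave 9265 and 8140 at 48 hours and 12975 and 9638 at 4 weeks. The leukocyte gene Ptprc gave 22877 and 25624 at 48 hours and 22130 and 20585 at 4 weeks. The pools were not macrophages alone: the fibroblast gene Dcn gave 12024 and 21570 at 48 hours and 31116 and 27749 at 4 weeks. Those signals lay in the range of Adgre1 or above it, and the part of fibroblast RNA in the results was not tested. The 4 weeks pool 2 stood apart in RNA quality: its ratio of 3' to 5' beta-actin signal, which grows as RNA is shortened, was 37.0, against 7.99 in the 4 weeks pool 1 and 11.3 and 13.9 in the 48 hours pools. Values are therefore given for each 4 weeks pool, and the part of RNA quality in the results was not tested. Pearson's r of log2 signals over all 13070 genes was 0.929 between the 4 weeks pools, 0.937 between the 48 hours pools, and 0.919 to 0.940 between times, so pools of one time were no more alike than pools of different times.

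F5, the gene for coagulation factor V, fell by 2.36 on the log2 scale (SE 0.26) from 48 hours to 4 weeks in the control pools. Its signal was 5244 and 7843 in the 48 hours pools and 1046 and 1427 in the 4 weeks pools, a 5.29-fold lower mean with no overlap. A second F5 probe set gave 2650 and 3156 at 48 hours and 341 and 811 at 4 weeks, a log2 difference of -2.38. F5 was the single gene of 13070 past adjusted p 0.05 (limma with Benjamini-Hochberg adjustment, adjusted p = 0.0367), 0.00765% of genes for the lower direction, and 0% were called higher. At an unadjusted p under 0.05 limma gave 442 higher genes, 3.38%, and 363 lower genes, 2.78%, together 805 where 654 of 13070 would pass by chance. Leaving out the 4 weeks pool 2 kept F5 (adjusted p = 0.0197) and gave 1 higher and 6 lower calls in all, whereas leaving out any other single array of the 8 lost the F5 call, with adjusted p from 0.0585 to 0.294. The F5 call also failed when control arrays were fitted alone (adjusted p = 0.162) or with a constant prior variance (adjusted p = 0.192). F5 gave 3608 and 3913 in the transgenic 48 hours pools and 3177 and 3411 in the transgenic 4 weeks pools, between the levels of the 2 control groups.

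The 15 lower genes with the smallest p, F5 among them, held receptors and secreted proteins of myeloid cells. The 14 after F5 did not pass the threshold. All were picked among genes whose control pools do not overlap, so the lack of overlap is no result. Cx3cr1, the fractalkine receptor of monocytes and tissue macrophages, gave 3088 and 2400 at 48 hours and 488 and 591 at 4 weeks, a log2 difference of -2.28 (SE 0.29, limma adjusted p = 0.087). Serpinb2, an inhibitor of plasminogen activators, gave 2564 and 4450 at 48 hours and 153 and 492 at 4 weeks, a log2 difference of -3.46 (SE 0.53, limma adjusted p = 0.216). For both genes each 48 hours pool lay far above each 4 weeks pool. When 1 array was left out, the log2 difference ranged from -4.21 to -2.71 for Serpinb2 and from -2.46 to -2.10 for Cx3cr1. For Tesc, named below, it ranged from -3.58 to -1.72. Adamdec1, a disintegrin-like metalloprotease of tissue macrophages, gave 469 and 876 at 48 hours and 70.2 and 142 at 4 weeks. Cd24a, a surface glycoprotein, gave 11083 and 14634 at 48 hours and 4893 and 6488 at 4 weeks, and its other probe sets gave log2 differences in the same direction. These genes, too, had no overlap between times, as the choice required.

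Siglecf, a sialic acid receptor best known from eosinophils, gave 1108 and 1530 at 48 hours and 215 and 403 at 4 weeks, a log2 difference of -2.03 (SE 0.34). The bright probe set of Cd8a, the co-receptor of cytotoxic T cells and of some dendritic cells, gave 5174 and 2021 at 48 hours and 522 and 297 at 4 weeks, a log2 difference of -2.94 (SE 0.47). The other 3 Cd8a probe sets, all dimmer on average, gave log2 differences of 0.39, 0.84 and 0.03, so the probe sets disagreed. The remaining genes of the 15 had log2 differences of -2.65 for Tesc, a calcium-binding protein, -1.97 for Phf19, a Polycomb-associated protein, -1.86 for Pglyrp1, a peptidoglycan-binding protein, -1.84 for Dnajc17, -1.67 for the Mediator subunit Med18, -1.65 for the signalling adaptor Stap1, -1.43 for the sulfotransferase Chst15 and -1.18 for Tmod3, which caps actin filaments.

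**Figure D1:**
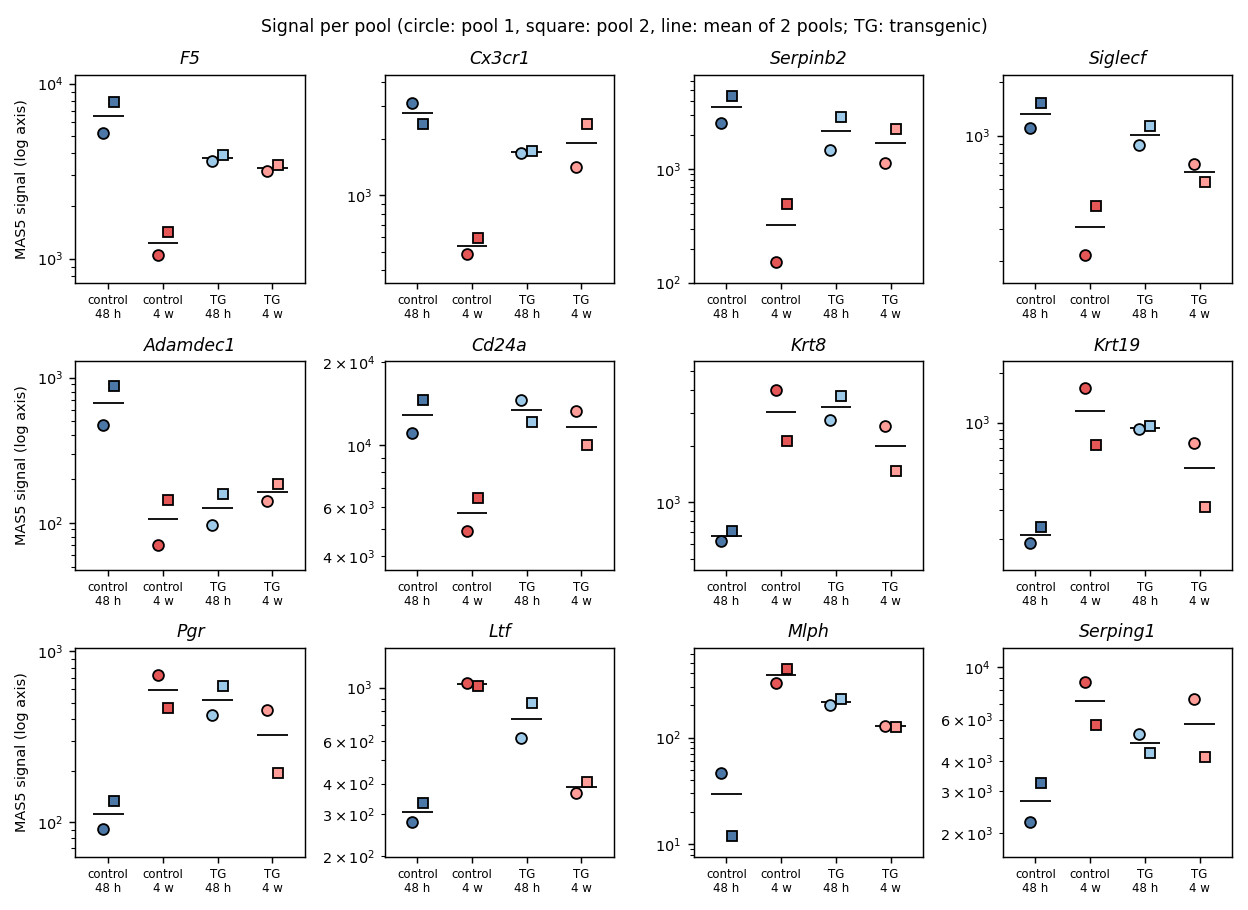
MAS5 signal (log axis) of 12 named genes in every pool, with circles for pool 1, squares for pool 2 and a line at the mean of both. F5 runs from 5244 and 7843 in the control 48 hours pools to 1046 and 1427 in the control 4 weeks pools, while Krt8 runs the other way, from 625 and 702 to 3965 and 2137.

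Among genes with both 4 weeks pools above both 48 hours pools, several of the 15 with the smallest p belong to mammary epithelium. None passed the threshold. Krt8, a keratin of luminal cells, gave 625 and 702 at 48 hours and 3965 and 2137 at 4 weeks, a log2 difference of 2.09 (SE 0.35, limma adjusted p = 0.216), and its 3 probe sets ranged from 2.01 to 2.58. Ltf, the iron-binding protein lactoferrin of milk and neutrophil granules, gave 277 and 331 at 48 hours and 1048 and 1017 at 4 weeks, a log2 difference of 1.67 (SE 0.29). Mlph, which links pigment and secretory vesicles to myosin, gave 46.7 and 12.0 at 48 hours and 322 and 440 at 4 weeks, a log2 difference of 2.82 (SE 0.45). In all these genes both 4 weeks pools lay above both 48 hours pools, as the choice of the 15 required. Serping1, the C1 inhibitor of complement, gave 2215 and 3236 at 48 hours and 8606 and 5699 at 4 weeks, a log2 difference of 1.38 (SE 0.32).

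The rest of the 15 were Krt19 with a log2 difference of 2.21, the progesterone receptor Pgr with 2.12, the luminal transcription factor Foxa1 with 1.50, the lipid transfer protein Mttp with 2.81, Sgsm1 with 2.39, the matrix protein Tnxb with 2.32, the palmitoyltransferase Zdhhc12 with 2.11, the growth factor Ptn with 1.40, Tmem158 with 1.33, the sulfotransferase Tpst1 with 1.25 and the respiratory subunit Ndufv2 with 1.13. The other Ndufv2 probe sets gave 0.19 and 0.14, so its probe sets disagreed.

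Type I interferon response genes were higher at 4 weeks mainly in 1 of the 2 pools. The promoters of many antiviral genes hold a repeated GAAA element, known as the interferon-stimulated response element. The letters GAAANNGAAA, searched on both strands so that TTTCNNTTTC counts as well, stood in 11 of 16 interferon response promoters that matched RefSeq (GRCm38.p6), 68.8%, and in 6 of 8 promoters of interferon-inducible GTPases and related genes, 75%. Among the 10488 tested genes with a promoter in that table, 395 held the letters, 3.77%. The windows run from 250 bases before to 50 after a transcript start of the gene in that table, which for Ifit3 is not the outermost start. These windows are shown because their genes carry the pattern described next, on the plus strand of chr19:34583279-34583578 (Ifit3), chr19:34640639-34640938 (Ifit1) and chr11:58199306-58199605 (Igtp) and the minus strand of chr12:26456403-26456702 (Rsad2), each 5' to 3' with the matches in capitals.
Ifit3: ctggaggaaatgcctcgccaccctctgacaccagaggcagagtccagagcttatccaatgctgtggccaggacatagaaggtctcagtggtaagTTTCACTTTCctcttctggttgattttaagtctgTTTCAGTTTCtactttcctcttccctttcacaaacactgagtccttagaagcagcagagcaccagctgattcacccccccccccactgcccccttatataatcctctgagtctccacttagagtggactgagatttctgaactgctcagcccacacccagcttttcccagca
Ifit1: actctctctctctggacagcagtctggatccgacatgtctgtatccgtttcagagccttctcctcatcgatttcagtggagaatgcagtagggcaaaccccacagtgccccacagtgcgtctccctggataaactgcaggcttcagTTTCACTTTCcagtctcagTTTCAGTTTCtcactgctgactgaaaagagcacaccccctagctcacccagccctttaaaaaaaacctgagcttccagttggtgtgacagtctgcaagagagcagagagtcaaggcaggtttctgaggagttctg
Rsad2: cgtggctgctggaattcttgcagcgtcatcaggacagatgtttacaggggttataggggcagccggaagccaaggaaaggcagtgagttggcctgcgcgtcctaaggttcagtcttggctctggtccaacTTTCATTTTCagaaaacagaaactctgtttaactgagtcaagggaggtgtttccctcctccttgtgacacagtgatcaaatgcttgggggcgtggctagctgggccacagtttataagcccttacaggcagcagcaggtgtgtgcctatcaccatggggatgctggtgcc
Igtp: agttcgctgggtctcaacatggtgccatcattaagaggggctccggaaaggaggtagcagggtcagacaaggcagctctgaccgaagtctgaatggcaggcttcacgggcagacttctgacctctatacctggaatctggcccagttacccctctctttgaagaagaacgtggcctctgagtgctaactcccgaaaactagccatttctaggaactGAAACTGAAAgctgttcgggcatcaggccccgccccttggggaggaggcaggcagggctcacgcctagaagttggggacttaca
A match of letters is a description and shows no binding.

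Ifit3, an antiviral protein that binds Ifit1, gave 494 and 760 at 48 hours, 3544 in the 4 weeks pool 1 and 1131 in the 4 weeks pool 2, a log2 difference of 1.66 (SE 0.46). Ifit1, which binds foreign RNA caps, gave 969 and 1712 at 48 hours, 7218 in the 4 weeks pool 1 and 1744 in the 4 weeks pool 2. Rsad2, the antiviral enzyme viperin, gave 8776 and 12445 at 48 hours and 18431 and 13801 at 4 weeks. The 4 weeks pools were above both 48 hours pools for these 3 genes, but for Ifit1 the margin of pool 2 was slight. Ifit2 overlapped, with 923 and 5122 at 48 hours, 20224 in the 4 weeks pool 1 and 3318 in the 4 weeks pool 2. Oas2, which makes the activator of the antiviral RNase L, was even between the 4 weeks pools, with 2416 and 2817 at 48 hours and 4909 and 4494 at 4 weeks.

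Of the 24 genes of the interferon list, 22 were tested, 20 had a positive log2 difference and 2 a negative one, and the median was 0.82, beside 0.05 over all genes tested, where 55% were positive and 45% negative. No member passed the adjusted threshold, and 9 had an unadjusted p under 0.05 in the higher direction, beside 3.38% of all genes, and 0 in the lower one, beside 2.78%. In 9 members both 4 weeks pools lay above both 48 hours pools, beside 18% of all genes, and in 1 they lay below, beside 13.7%. The median difference from the 48 hours mean was 1.53 in the 4 weeks pool 1 and 0.20 in the 4 weeks pool 2, while the 48 hours pools differed from each other by a median of 0.63. The list was thus high in 1 pool, with pool 2 inside the spread of the 48 hours pools. In the transgenic pools, 4 weeks minus 48 hours had a median of -0.34.

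Interferon-inducible GTPases and related genes, which attack vacuoles of microbes or recruit lymphocytes, had a median of 0.84 over 10 members tested of 16, all of them positive. Iigp1 gave 4154 and 6460 at 48 hours and 13732 and 10386 at 4 weeks, a log2 difference of 1.20 (SE 0.28). Gbp2 gave 4133 and 4620 at 48 hours and 6923 and 7664 at 4 weeks. Igtp, whose promoter is printed above, gave 1329 and 2428 at 48 hours and 6341 and 2830 at 4 weeks. Both 4 weeks pools were above the 48 hours pools in these 3 genes and in Gbp6, 4 of 10 members, beside 18% of all genes. The list's median was 1.29 in the 4 weeks pool 1 and 0.52 in the 4 weeks pool 2.

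**Figure D2:**
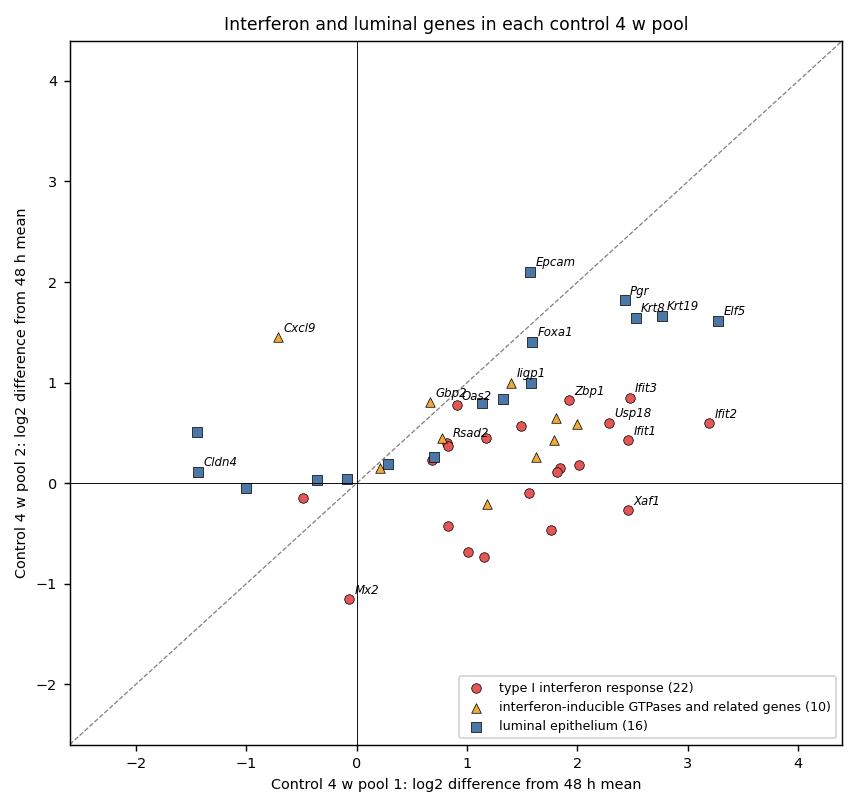
Log2 difference of each 4 weeks control pool from the mean of the 48 hours control pools, pool 1 on the horizontal and pool 2 on the vertical axis, for 3 gene lists; the dashed line marks equal differences. Most interferon genes lie far right and near 0 on the vertical axis (list medians 1.53 and 0.20), whereas the luminal genes Krt8, Krt19, Pgr, Epcam and Foxa1 are high in both pools.

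For class I presentation, which shows cytosolic peptides to cytotoxic T cells, all 12 members tested of 15 had a positive log2 difference, with a median of 0.42, and 4 had an unadjusted p under 0.05, beside 3.38% of all genes. The median was 0.67 in the 4 weeks pool 1, with 12 members positive, and 0.24 in the 4 weeks pool 2, with 7 positive. Psmb9, an immunoproteasome subunit, gave 869 and 1084 at 48 hours and 2139 and 1591 at 4 weeks. Tap1, the peptide transporter, gave 518 and 750 at 48 hours and 1284 and 1140 at 4 weeks, and Nlrc5, the class I transactivator, gave 539 and 556 at 48 hours and 955 and 948 at 4 weeks. All 3 were separated between times in both pools. For class II presentation, 3 of 11 members tested were positive and 8 negative, the median was -0.17, with -0.39 in the 4 weeks pool 1 and 0.06 in the 4 weeks pool 2, and the 48 hours pools differed from each other by a median of -0.78, more than the times did.

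Luminal epithelial genes had the highest median of the 36 lists when both 4 weeks pools were used, 1.02, and were higher in both 4 weeks pools, with medians of 1.23 in pool 1 and 0.81 in pool 2 against a gap of 0.06 between the 48 hours pools. Of 16 members tested out of 20, 11 had both 4 weeks pools above both 48 hours pools, beside 18% of all genes, and 8 had an unadjusted p under 0.05, beside 3.38%; none passed the adjusted threshold. Krt19 gave 190 and 235 at 48 hours and 1612 and 737 at 4 weeks. Pgr gave 90.3 and 132 at 48 hours and 724 and 464 at 4 weeks. Epcam, an epithelial adhesion molecule, gave 150 and 66.7 at 48 hours and 364 and 538 at 4 weeks. The summed signal of the list was 5863 and 6130 at 48 hours and 16737 and 11783 at 4 weeks. In each of these the groups stood apart.

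The members that did not share this were Cldn3, Cldn4, Ehf, Elf3 and Spint1, all dim and overlapping between times, with log2 differences of -0.47, -0.66, -0.53, -0.16 and -0.02. The control 48 hours pools were the low ones of the study. Deviations were taken from each gene's mean over the 4 control arrays. Their median over the list was -0.40 and -0.41 in the control 48 hours pools and 0.65 and 0.37 in the control 4 weeks pools. It was 0.46 and 0.51 in the transgenic 48 hours pools, and 0.45 and -0.29 in the transgenic 4 weeks pools. Luminal cells are not macrophages and carry no Cd11b, and the part of epithelial RNA in the other differences was not tested.

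Milk genes had a median of 0.54 over 11 members tested of 14, but 1.69 in the 4 weeks pool 1 and -0.0033 in the 4 weeks pool 2. Csn3, kappa-casein, gave 855 and 974 at 48 hours and 6631 and 1660 at 4 weeks. Its log2 difference ranged from 0.84 to 2.82 when 1 array was left out. Mfge8, a milk fat globule protein that macrophages also secrete to bind apoptotic cells, gave 1234 and 1392 at 48 hours and 1917 and 2010 at 4 weeks. Both genes were separated between times, and 5 members in all had an unadjusted p under 0.05 in the higher direction, beside 3.38% of all genes.

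Inflammatory cytokines and NF-kB targets were lower at 4 weeks mainly in pool 1. Of 16 members tested, 14 had a negative log2 difference, beside 45% of all genes, with a median of -0.51. In the lower direction 3 had an unadjusted p under 0.05, beside 2.78% of all genes. Nlrp3, the inflammasome sensor, gave 3353 and 2150 at 48 hours and 1310 and 1344 at 4 weeks, a 2.07-fold lower mean. Ptgs2, the inducible cyclooxygenase, gave 9579 and 8703 at 48 hours and 3276 and 6287 at 4 weeks. Il1b gave 20223 and 16644 at 48 hours and 9627 and 14295 at 4 weeks. The times did not overlap in these 3 genes, nor in 2 further lower members, 5 of 16 in all, beside 13.7% of all genes. Il10 and Il12a, 2 of 16, were higher in both 4 weeks pools, beside 18% of all genes. The list's median was -0.79 in the 4 weeks pool 1 and -0.19 in the 4 weeks pool 2, where 6 of 16 members were positive. The 48 hours pools differed by a median of -0.38.

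Growth and angiogenic factors had 13 negative members of 16 tested and a median of -0.47, with -0.78 in the 4 weeks pool 1 and -0.20 in the 4 weeks pool 2, and in 5 both 4 weeks pools lay below the 48 hours pools, beside 13.7% of all genes. Hgf, the ligand of Met on epithelium, gave 431 and 562 at 48 hours and 267 and 205 at 4 weeks, and Pdgfb gave 534 and 477 at 48 hours and 181 and 350 at 4 weeks. Matrix remodelling genes had a median of -0.33 over 18 members, with 10 negative and 8 positive, and -0.30 in the 4 weeks pool 1 against -0.06 in the 4 weeks pool 2. Adam8, a metalloprotease of myeloid cells, gave 2807 and 2840 at 48 hours and 983 and 2102 at 4 weeks, and Timp1, an inhibitor of matrix metalloproteases, gave 676 and 859 at 48 hours and 367 and 451 at 4 weeks. These 4 genes were lower in both 4 weeks pools, with unadjusted p under 0.05 for Hgf, Adam8 and Timp1. Chemokines had a median of -0.34 over 20 members, but -0.26 in the 4 weeks pool 1 and 0.06 in the 4 weeks pool 2, where 11 of 20 were positive, so the direction rested on pool 1. Ccl3 gave 14072 and 10015 at 48 hours and 5316 and 9130 at 4 weeks, and Ccl6, which was higher, gave 32947 and 33544 at 48 hours and 54401 and 39693 at 4 weeks.

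Genes of eosinophils and mast cells, cells that can carry Cd11b, had the lowest fitted median of the 36 lists, -0.83 over 9 members tested of 16, with -1.55 in the 4 weeks pool 1 and -0.33 in the 4 weeks pool 2. Ccr3, the eotaxin receptor, gave 225 and 160 at 48 hours and 7.8 and 19.3 at 4 weeks, and Alox15, a lipoxygenase of eosinophils and macrophages, gave 400 and 292 at 48 hours and 35.1 and 146 at 4 weeks. Ms4a2, the beta chain of the IgE receptor, gave 130 and 155 at 48 hours and 28.2 and 17.9 at 4 weeks. With Siglecf and Kit, 5 members were lower in both 4 weeks pools, beside 13.7% of all genes, and 4 had an unadjusted p under 0.05, beside 2.78%. Of the 9 members, 7 had a negative log2 difference and 2 a positive one. Cma1 had 0.47, with 298 and 566 at 48 hours and 531 and 642 at 4 weeks. The bright Hdc had -0.83, with 1774 and 2882 at 48 hours and 653 and 2386 at 4 weeks, and both genes overlapped. The 4 weeks signals of Ccr3 and Ms4a2 lay below the offset of 30.8, near the floor. The summed signal of the list was 4980 and 7058 at 48 hours and 2898 and 4730 at 4 weeks. Siglecf made up 1108 and 1530 of it at 48 hours and 215 and 403 at 4 weeks. The narrow separation of the sums rested on that gene. The part of the list in the macrophage results was not tested.

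T and NK cell genes had a median of -0.26 over 15 members, with -0.50 in the 4 weeks pool 1 and 0.02 in the 4 weeks pool 2. Cd8a, Gzma, Nkg7 and Cd3d, 4 of 15, were lower in both, beside 13.7% of all genes. The summed signal of the list was 9232 and 6241 at 48 hours and 3160 and 4291 at 4 weeks. Without Cd8a, whose probe sets disagreed, it was 4058 and 4220 at 48 hours and 2638 and 3994 at 4 weeks, a sum added after seeing the data. Monocyte genes had a median of -0.14 over 12 members, with -0.02 in the 4 weeks pool 1 and 0.11 in the 4 weeks pool 2. They did not move as 1 group: Cx3cr1 and Nr4a1 were lower in both 4 weeks pools, beside 13.7% of all genes. Ace and F10 were higher in both, beside 18%. Nr4a1, a nuclear receptor of patrolling monocytes, gave 12840 and 10901 at 48 hours and 8298 and 8412 at 4 weeks. Neutrophil genes had a median of -0.10, with -0.73 in the 4 weeks pool 1 and 0.59 in the 4 weeks pool 2. Dendritic cell genes had -0.17, with -0.61 in pool 1 and 0.11 in pool 2, and B cell and plasma cell genes had -0.29, with -0.84 and 0.32. The 4 erythroid genes had 0.21, with 0.76 and -0.05, and adipocyte genes had 0.22, with -0.41 and 1.03. In the neutrophil, dendritic cell, B cell, erythroid and adipocyte lists the 4 weeks pools thus went opposite ways, and leaving out 1 of them decided the sign.

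Genes of resident tissue macrophages had a median of 0.21 over 21 members, 0.58 in the 4 weeks pool 1 and -0.03 in the 4 weeks pool 2. Lyve1, a hyaluronan receptor of perivascular macrophages, gave 11000 and 14702 at 48 hours and 40631 and 17766 at 4 weeks, a log2 difference of 1.08 (SE 0.35). Timd4, a receptor for phosphatidylserine on dying cells, gave 1801 and 1956 at 48 hours, 4339 in the 4 weeks pool 1 and 2002 in the 4 weeks pool 2. Both genes were higher in each 4 weeks pool, far more so in pool 1. Other bright members had log2 differences of 0.14 for the mannose receptor Mrc1, 0.05 for Pf4 and 0.18 for C1qb, all overlapping between times, and Adgre1, with a log2 difference of -0.34 (SE 0.20), was lower in both 4 weeks pools.

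Complement genes had a median of 0.22 over 14 members, of which 12 were positive, but 0.77 in the 4 weeks pool 1 and -0.0086 in the 4 weeks pool 2, where 7 were positive. C1s1 gave 194 and 425 at 48 hours and 858 and 589 at 4 weeks, and Cfb gave 813 and 891 at 48 hours and 2838 and 1295 at 4 weeks, both without overlap. Lysosome and cathepsin genes had 15 positive members of 16 and a median of 0.25, but 0.43 in the 4 weeks pool 1 and -0.04 in the 4 weeks pool 2. Toll-like receptors and adaptors had a median of 0.28 (0.23 in pool 1, 0.22 in pool 2), and genes of apoptotic cell uptake had 0.23 (0.30 and 0.20). Sterol and fatty acid synthesis genes had 0.06, with pools of opposite sign (-0.13 and 0.17). Heat shock proteins had 0.16 (0.0002 in pool 1, 0.21 in pool 2), while the 48 hours pools differed from each other by a median of 0.59. Medians were 0.06 for alternative activation, 0.05 for lipid handling, 0.05 for iron and heme handling and -0.07 for immediate early genes, and each 4 weeks pool was between -0.06 and 0.13 in these. Housekeeping processes were near the median of all genes, with 0.15 for oxidative phosphorylation (0.22 and 0.04), 0.02 for glycolysis and -0.04 for cytosolic ribosomal proteins.

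**Figure D3:**
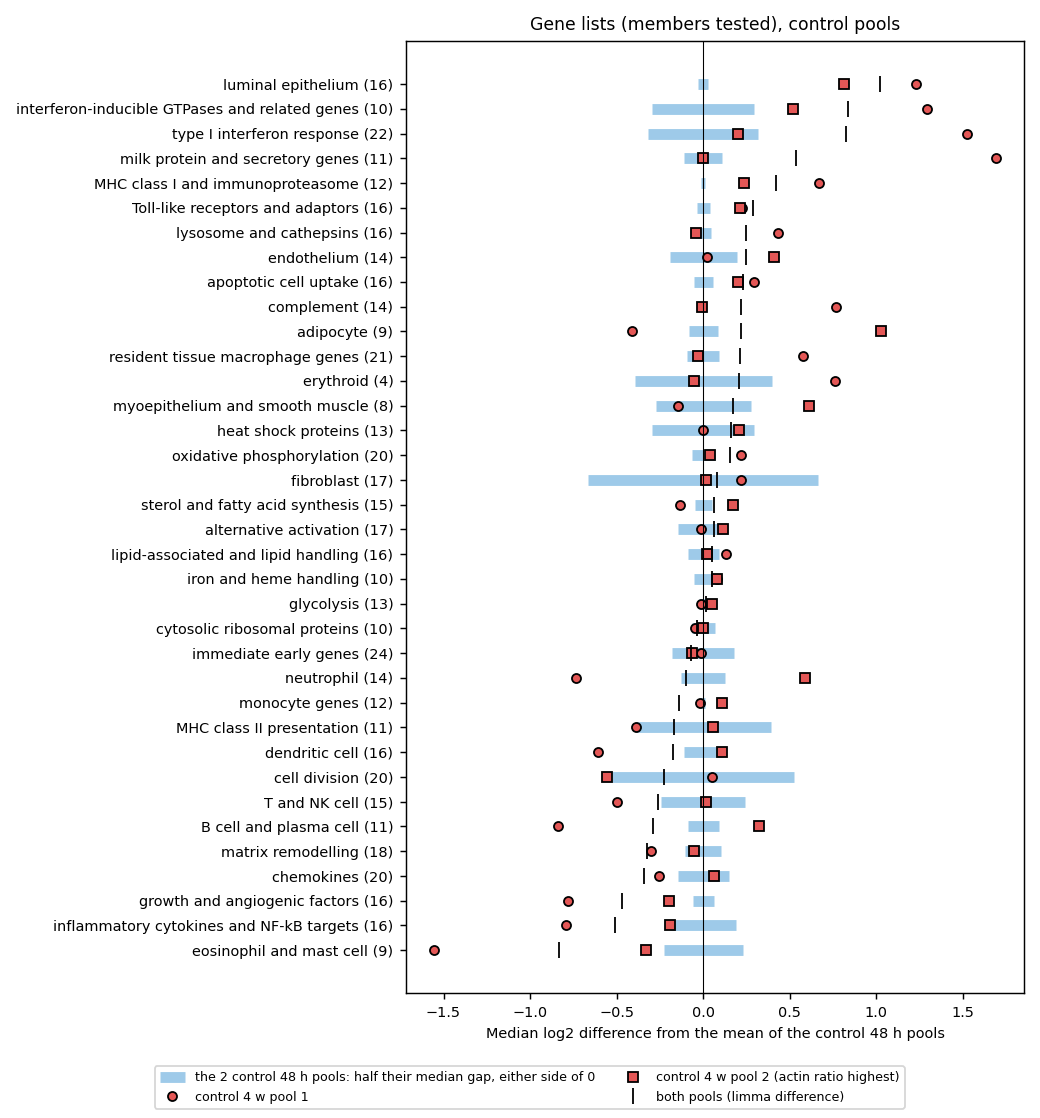
Median log2 difference from the mean of the 48 hours control pools for 36 gene lists, with circles for the 4 weeks pool 1, squares for the 4 weeks pool 2, bars for the gap between the 48 hours pools and ticks for the median limma difference. Luminal epithelium has both 4 weeks pools well above the bar (1.23 and 0.81), and eosinophil and mast cell genes have the lowest limma median, -0.83, with pools at -1.55 and -0.33.

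The same time difference was fitted in the transgenic pools, which share no array with the control pools. There limma called 0 genes higher and 0 lower at adjusted p 0.05, with 150 and 135 at an unadjusted p under 0.05, 1.15% and 1.03%. The test of the difference between the genotypes' time differences called 0 genes in either direction, with a lowest adjusted p of 0.19 and with 337 and 279 genes at an unadjusted p under 0.05, 2.58% and 2.13%. Across genes, which are not independent replicates, the control and transgenic time differences had a Pearson's r of -0.05 and a Spearman's rho of -0.07.

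Zdhhc12 had the smallest p in that test. It gave 109 and 56.0 in the control 48 hours pools and 433 and 457 in the control 4 weeks pools, against 387 and 314 in the transgenic 48 hours pools and 51.8 and 51.1 in the transgenic 4 weeks pools, so the order of the times was opposite. The difference between the genotypes' log2 differences was 4.32 (SE 0.56, limma adjusted p = 0.19). Med18 gave 884 and 1463 in the control 48 hours pools and 280 and 404 in the control 4 weeks pools, against 558 and 465 and then 1119 and 1421 in the transgenic pools. For Ltf the control pools were higher at 4 weeks and the transgenic pools, with 620 and 866 at 48 hours and 367 and 408 at 4 weeks, were lower. None of these passed the adjusted threshold.

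**Figure D4:**
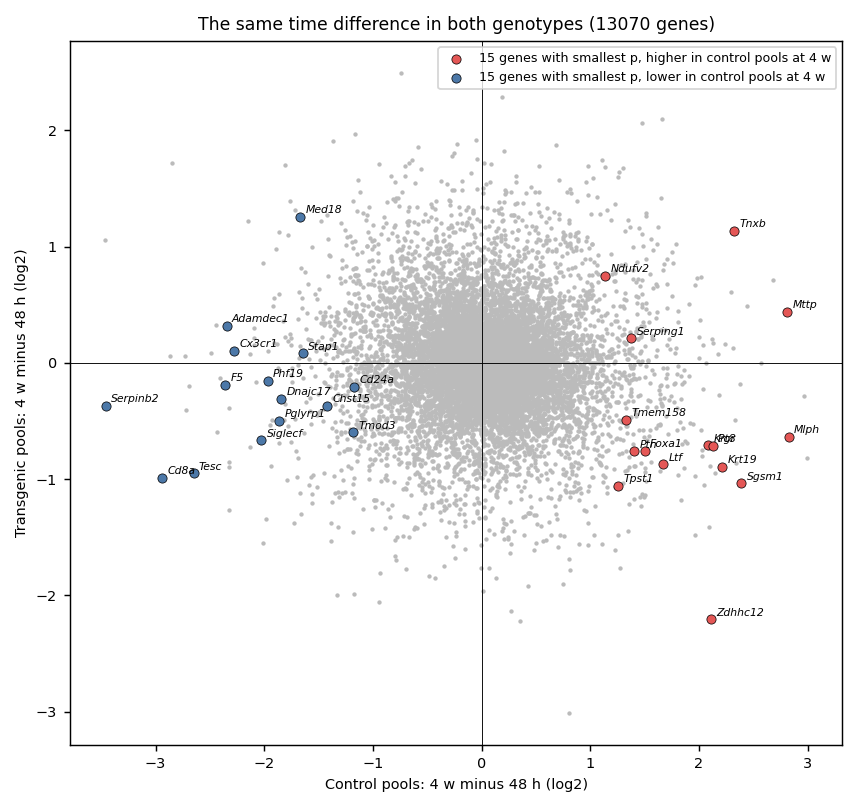
Log2 difference of 4 weeks from 48 hours in control pools (horizontal axis) and in transgenic pools (vertical axis) for 13070 genes. Coloured and named are the 15 genes of smallest p in each direction, among those whose control pools do not overlap. F5 lies at -2.36 and -0.19, Zdhhc12 at 2.11 and -2.21, and the cloud has no slope (r = -0.05).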

How the data were processed

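The authors deposited a linear intensity for each probe set, made with MAS5 according to the submitters' processing notes (version not given), and every array averaged 500 once 2% of values was trimmed at each end. Detection calls were not used. Of 45101 probe sets, 64 were controls, 34945 carried 1 gene symbol in the platform annotation, 932 several and 9160 none, and those with 1 symbol were used. Intensities were converted to log2(signal + 30.8), the offset being the 25th percentile, so differences of dim genes are understated. Probe sets had to exceed the median of at least 2 arrays, and the brightest per gene was taken, giving 13070 genes.

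All 8 arrays were fitted in limma 3.58.1 (R 4.3.3; eBayes with trend) with 4 group means, leaving 4 residual degrees of freedom and a median prior of 6.33. P-values were two-sided, adjusted by Benjamini-Hochberg over all genes at 0.05, and measure the spread between pools. The number of arrays limits the precision. The fit was tested on simulated data. Gene lists got no test. Alternatives changed the normalization, offset, filter, prior trend and array weights, blocked on pool number or used control arrays alone. Others added the actin ratio as covariate or left out 1 array. Leaving out 1 array left 1 pool in its group, so calls from those fits have no spread between pools there.

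Genes named are the 15 with the smallest p in each direction whose pools do not overlap and whose mean signal is at least 200 in the higher group, up to 6 of each list with the smallest p, up to 5 in each direction of the difference between genotypes, members needed to account for a list, and Csf1r, Adgre1 and Itgam. The comparison, members and lists were chosen with earlier results of these data known. Plots used matplotlib 3.10.9 (Python 3.11.15).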

Additional observations from a re-analysis of the deposited data

Results flagged for a closer look

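In 3 gene lists both control 4 weeks pools lay on one side of both control 48 hours pools, and the transgenic pools were ordered the other way. The measure was the list's median deviation from each gene's mean over the 4 control arrays, and any gap counted, however small. The difference between the genotypes was not tested for any list. The median log2 difference of inflammatory cytokines and NF-kB targets was -0.507 in control pools and 0.276 in transgenic pools. The control times were barely separated there, with deviations of -0.0099 in the 48 hours pool 2 and -0.0195 in the 4 weeks pool 2. Luminal epithelial genes had 1.02 in control pools and -0.328 in transgenic pools. The transgenic times were barely separated there, with deviations of 0.457 in the 48 hours pool 1 and 0.449 in the 4 weeks pool 1. Iron and heme handling genes had 0.0525 in control pools and -0.169 in transgenic pools, both small beside the spread between pools.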

How the results depend on the processing

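With quantile normalization, with the offset left out or set to the median signal, and with no filter, F5 stayed the single call, and with probe sets tested separately 1 lower probe set was called. The number of lower genes was 0 under a filter at the 75th percentile (F5 adjusted p = 0.0627, limma), a filter over the control arrays (0.0503), array weights (0.0575), a constant prior variance (0.192) and control arrays alone (0.162). It was 7 with the actin ratio as a covariate, among them F5, Cx3cr1, Serpinb2, Siglecf and Tesc, 2 at adjusted p 0.1 and 363 at an unadjusted p under 0.05, where 442 genes were higher. Leaving out 1 array gave 0 to 6 lower and 0 to 1 higher genes, and F5 kept its sign throughout, from -2.07 to -2.65. The difference between genotypes gave 337 and 279 genes at an unadjusted p under 0.05 and 0 to 1 lower genes when 1 array was left out, the 1 without the transgenic 48 hours pool 2.

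Pool numbers did not pair the samples: deviations of same-numbered pools from their group means correlated at -0.0853 between the control groups and at 0.0185 to 0.133 for the other pairs of groups, 3 of the 6 above 0.1. With pool number as a replicate block, 4 genes were lower (Cd8a, Cx3cr1, F5 and Serpinb2), with F5 at an adjusted p of 0.00531 (limma).

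Signs reversed in dim or nearly equal genes; the cause was not tested. Itgam had 0.317 with the actin covariate, and Spint1 0.004 under quantile normalization. Leaving out 1 array gave ranges of -1.44 to 0.504 for Cldn3, -1.44 to 0.116 for Cldn4, -0.357 to 0.0327 for Elf3, -0.346 to 0.299 for Spint1, -0.186 to 0.0272 for Csf1r, -1.7 to 1.19 for Itgam, -0.0324 to 0.308 for Mrc1 and -0.0245 to 0.127 for Pf4. The luminal median ranged from 0.81 to 1.84, the interferon median from 0.20 to 1.53, the inflammatory median from -0.79 to -0.19 and the eosinophil and mast cell median from -1.55 to -0.33 over all alternatives.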

Other observations

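Several lists differed more between the 48 hours control pools than between times, with the widest gaps in fibroblast and cell division genes. Fibroblast genes were higher in the 48 hours pool 2 than in pool 1 by a median log2 difference of 1.33 over 17 members, beside 0.08 between times, with summed signals of 53538 and 127799 at 48 hours and 99792 and 78776 at 4 weeks. Cell division genes were higher in the 48 hours pool 2 by 1.05 over 20 members, beside -0.23 between times. Myoepithelial and smooth muscle genes had a median of 0.17 between times, with -0.15 in the 4 weeks pool 1 and 0.61 in the 4 weeks pool 2. Endothelial genes had 0.25, with 0.02 and 0.41. The 48 hours pool 2 differed from pool 1 by a median of -0.55 in the myoepithelial list and 0.39 in the endothelial list.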
